A study of Mus musculus with 8 samples.

Results

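The liver of mice with non-alcoholic steatohepatitis (NASH) given extracellular vesicles (EVs) of bovine colostrum at a low dose was compared with the liver of NASH mice without EVs. Each side was 1 RNA library. All genes with 5 FPKM or more in at least 1 of the 2 libraries were described, which were 7404 of the 45777 genes of the table. FPKM are fragments scaled to transcript length and library size, a level per length. A gene's ratio is log2((FPKM + 1) / (FPKM + 1)) of EV low dose over NASH, less the median of that ratio over the 7404 genes, and every log2 value below is on this scale unless another is named. The added 1 FPKM makes the ratios of weakly expressed genes smaller than their true ones. Of the 7404 genes, 701 reached 5 FPKM in NASH alone and 104 in EV low dose alone. Just inside the limit of 5 FPKM was Cdk16 (3.07 FPKM in EV low dose against 5.0 in NASH) and just outside it Plekho2 (3.49 FPKM in EV low dose against 4.997 in NASH).

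The series held liver and colon libraries of 4 groups: NASH with the low EV dose, NASH with the high EV dose, NASH, and control, with 1 library for each group and tissue. The high dose and control livers are given beside the compared pair so that a reader can place the values. The labels gave neither the amounts of EVs nor the strain, sex, age, diet, route or length of treatment, and that the EV groups were NASH animals comes from the design text of the series. It was not stated whether a library came from 1 animal or from pooled RNA. With 1 library a side there is no spread between animals to set a difference against, so no test was run, and "higher" and "lower" compare 2 libraries.

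In NASH, hepatocytes store fat and die, resident Kupffer cells and recruited myeloid cells are activated, and stellate cells deposit collagen. A fatty and inflamed liver also loses programs of the mature hepatocyte, among them the sex-biased genes that pulses of growth hormone maintain through STAT5B. Major urinary proteins (MUPs), pheromone carriers that the male mouse liver secretes in large amounts, are the best known of these. Calprotectin, the dimer of S100A8 and S100A9, is carried by neutrophils and monocytes, and the transcription factor ATF4 runs the integrated stress response, which hepatocytes use when amino acids are short or protein folding fails. EVs are membrane-bound particles that cells release, and colostrum, the first milk, is rich in them.

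The liver label fitted the markers. Alb, which encodes albumin, was at 15745 FPKM with the low and 15525 with the high EV dose, against 15732 in NASH and 19466 in control, and at 2.90 FPKM in the EV low dose colon. The hepatocyte identity list summed to 34860.3 FPKM with the low and 34898 with the high EV dose, against 36274 in NASH and 43099 in control. The milk genes Csn2, Lalba and Wap were listed at 0 in all 4 livers. The Y-linked gene Eif2s3y was at 26.3 FPKM with the low and 32.1 with the high EV dose, against 18.8 in NASH and 18.9 in control. Each liver library thus held RNA of male mice. In the 4 livers 10469 to 12420 genes had at least 1 FPKM. The sequencing depth behind a value is unknown, because the files hold no counts.

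Some features of the 2 libraries moved with the ratio and are given first. The median gene stood at -0.11 before it was taken off, and at -0.10 for the high dose over NASH. Ratios ran with transcript length, base composition and level: with genes divided into 5 equal bins, the median was 0.11 in the shortest and -0.08 in the longest, and 0.11 at the lowest GC content and -0.16 at the highest. By mean FPKM the median was -0.10 in the lowest bin and 0.13 in the highest. In the corner of short genes with low GC the median of 130 genes was 0.33, and in the corner of long genes with high GC the median of 123 genes was -0.36. For this reason the medians of many gene lists below are also given relative to genes of like length and GC content, that is, relative to the median of its cell in a grid of 5 by 5 bins, which 7069 of the 7404 genes could be placed in. The part that length and GC content had in any single ratio was not tested. Of all FPKM added up, 5 small RNA genes (Rmrp, Rpph1, Rn7sk, Rn7s2 and Rn7s1) took 54.0% with the low and 50.2% with the high EV dose, against 49.7% in NASH and 54.9% in control.

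**Figure D1:**
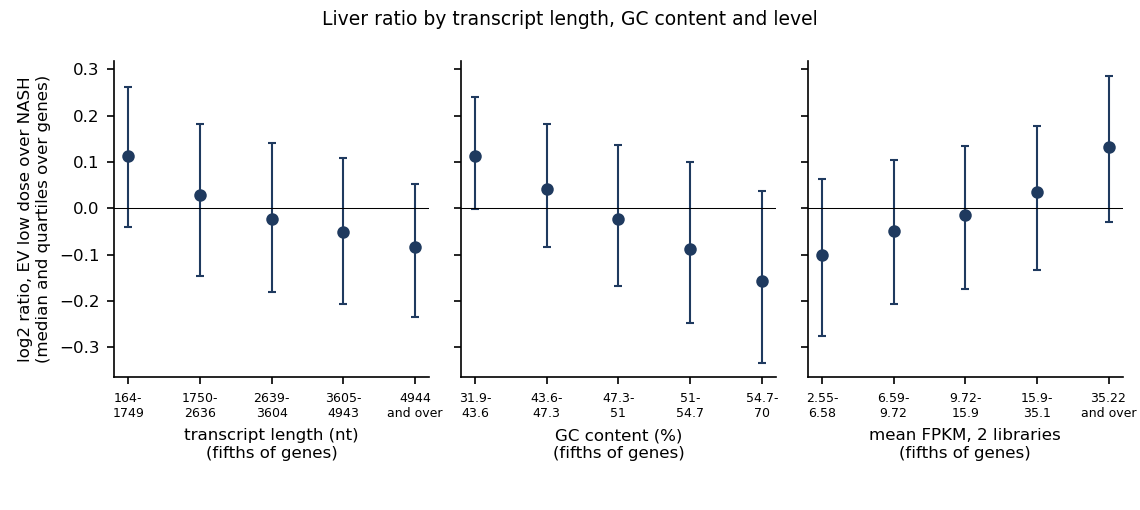
Median log2 ratio of EV low dose over NASH in liver (points) with the quartiles over genes (bars), in 5 equal bins each of transcript length, GC content and mean FPKM of the 2 libraries. The medians run from 0.11 to -0.08 with length, from 0.11 to -0.16 with GC content, and from -0.10 to 0.13 with level.

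A second feature separated the libraries in both tissues. The pseudogenes Rps7-ps3, Gm13841 and Gm8210 were among the highest ratios (2.34, 2.27 and 2.21). Rps7-ps3 was at 16.1 FPKM with the low and 3.53 with the high EV dose, against 2.65 in NASH and 11.9 in control. In colon the same gene was at 44.3 FPKM with the low and 8.33 with the high EV dose, against 6.25 in NASH and 36.3 in control. The EV low dose and control libraries were thus high and the EV high dose and NASH libraries low, in each tissue, and the same held for Gm13841 and Gm8210. Rps7, the ribosomal protein gene after which Rps7-ps3 is named, was at 291 FPKM in EV low dose against 262 in NASH, which is a ratio of 0.26. Of the 7404 genes, 5 were more than 2 times as high in both EV low dose and control as in both EV high dose and NASH: these 3, the repressor Bcl6 and the tRNA gene n-TYgta3. The opposite pattern, by the same factor lower in EV low dose and control, was held in liver by 2 of the 7404, the histone genes H2bc6 and H2aw. Neither held it in colon, where H2aw was at 41.8 FPKM with the low and 55.9 with the high EV dose, against 26.8 in NASH and 49.8 in control. In both patterns each of the 2 higher libraries had to reach 3 FPKM. What these pairs of libraries share was not stated in the labels and was not tested, so members with these patterns are pointed out below.

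**Figure D2:**
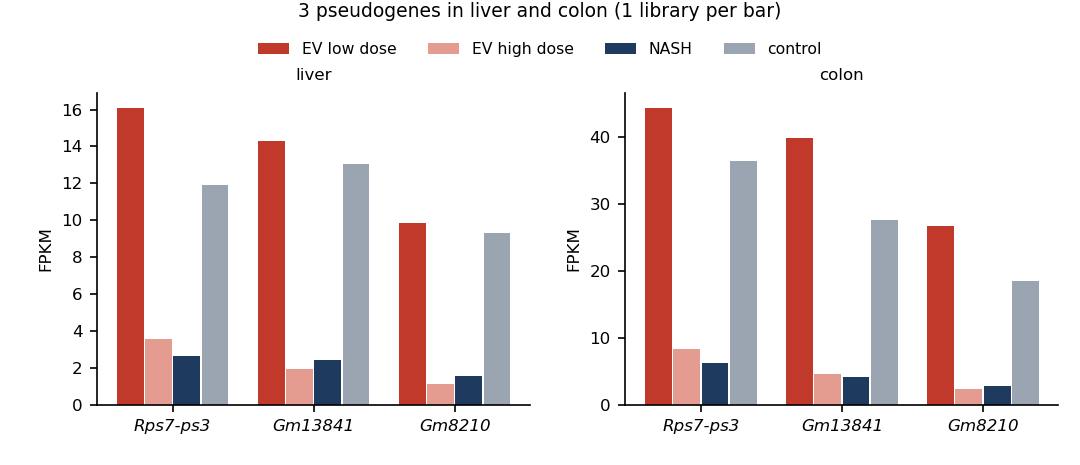
FPKM of 3 pseudogenes in liver (left) and colon (right), 1 library per bar. In both tissues the EV low dose and control bars stand high and the EV high dose and NASH bars low: for Gm8210 in liver 9.85 (EV low dose) and 1.13 (EV high dose), against 1.52 (NASH) and 9.31 (control).

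The 2 livers were close for nearly all genes. Of 7404 genes, 38 were at least 2-fold higher in EV low dose (0.513%) and 12 were at least 2-fold lower (0.162%), while 7354 lay within 2-fold. The quartiles lay at -0.17 and 0.16, and percentiles 1 and 99 at -0.65 and 0.75. The 38 genes included 17 Mup genes, and 29 of the 38 were protein-coding. The last gene inside the limit was Pmm1 above (1.05) and Enpep below (-1.07), and the first outside were Mup21 (0.97) and H2aw (-0.99). As deposited, without taking off the median gene, the counts were 33 higher and 21 lower, and with both libraries scaled to the same FPKM sum they were 32 and 40. The 5 small RNA genes above made up 54.0% of the FPKM sum of EV low dose and 49.7% of that of NASH. Protein-coding genes summed to 377879 FPKM in EV low dose and 374843 in NASH. At a limit of 1.5-fold, a setting added after the data were seen, 154 genes were higher (2.08%) and 105 lower (1.42%). By FPKM as deposited, NASH was more than 2 times each other liver in 18 of the 7404 genes and more than 2-fold below each of them in 24. Apart from Inmt, Thrsp, Slco1a1, Sult2a8, Cyp2c54 and the long RNA gene Gm41999, all of these 24 were Mup genes or the pseudogene Mup-ps21. Many Mup genes are near-identical copies, so the 24 do not stand for as many separate genes. For EV low dose the 2 counts, above and below each other liver, were 3 and 0. In these counts the higher library or libraries had to reach 5 FPKM. Both EV livers are set against the same 1 NASH library.

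**Figure D3:**
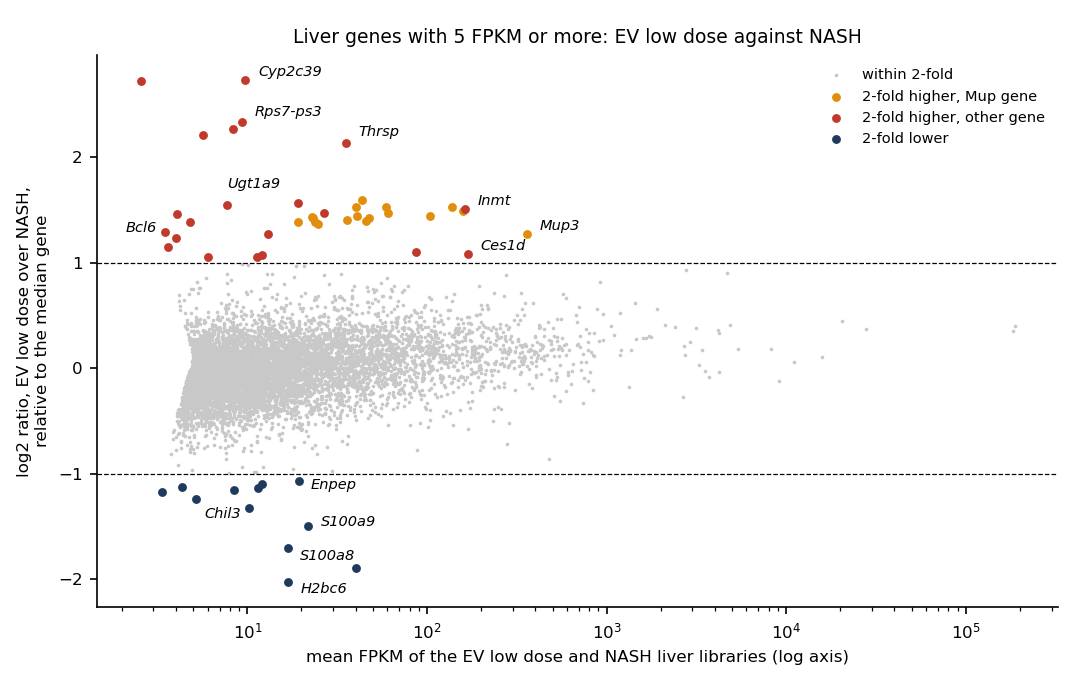
Log2 ratio of EV low dose over NASH, relative to the median gene, against the mean FPKM of the 2 liver libraries (log axis). Each point is 1 of 7404 genes, dashed lines mark 2-fold, and the 38 genes above the upper line include 17 Mup genes (orange), while 12 genes lie below the lower line (blue).

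RNA of both calprotectin subunits was lower in the EV low dose liver. S100a8 (gene ID 20201, chromosome 3, 90669071 to 90670034 of GRCm38.p6) was at 6.89 FPKM in the EV low dose liver and 8.65 in the EV high dose liver, against 26.7 in NASH and 1.95 in control, a ratio of -1.70. S100a9 (gene ID 20202, chromosome 3, 90692630 to 90695721 of GRCm38.p6) was at 10.2 FPKM with the low and 9.46 with the high EV dose, against 33.2 in NASH and 2.08 in control, a ratio of -1.50. The NASH library held the most RNA of both genes, and both EV livers stood between NASH and control. The 250 bases before the annotated start of S100a8 (chr3:90668821-90669070, plus strand, GRCm38.p6, from RefSeq) are shown because S100a8 leads the myeloid genes: the capitals mark TATAAA, which begins 30 bases before it and which was found, on either strand, in 14.3% of 27025 genes with a sequence of this length.
S100a8: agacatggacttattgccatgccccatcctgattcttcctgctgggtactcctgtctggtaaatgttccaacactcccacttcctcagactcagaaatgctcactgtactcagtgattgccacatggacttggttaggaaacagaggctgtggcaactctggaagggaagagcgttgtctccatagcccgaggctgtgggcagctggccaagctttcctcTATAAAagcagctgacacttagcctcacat

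Other neutrophil genes were lower with it. Of the 21 genes of the neutrophil granule and calprotectin list, 4 reached 5 FPKM, and they stood at -1.70 to -0.86. Chil3, a secreted myeloid protein related to chitinases, was at 2.49 FPKM with the low and 1.96 with the high EV dose, against 7.92 in NASH and 0.132 in control (-1.24), and it entered only through its NASH value. Lcn2, which encodes lipocalin-2, a protein of neutrophil granules that hepatocytes also secrete when inflamed, was at 322 FPKM in the EV low dose liver and 296 in the EV high dose liver, against 633 in NASH and 1.80 in control (-0.86). The other 17 genes were below 5 FPKM in both libraries. Among them, named after their values were seen, the granule genes Camp, Ngp and Ltf were at 0 FPKM in EV low dose against 3.29 in NASH, 0.171 FPKM with the low EV dose against 2.06 in NASH and 0.0733 FPKM in EV low dose against 1.03 in NASH. Csf3r, the receptor for the neutrophil growth factor G-CSF, was at 1.58 FPKM in EV low dose against 3.04 in NASH. The list summed to 347 FPKM with the low and 322 with the high EV dose, against 718 in NASH and 6.94 in control, with Lcn2 making up most of it. Without Lcn2 the other 20 genes summed to 25.1 FPKM with the low and 25.4 with the high EV dose, against 85.1 in NASH and 5.15 in control. In all, 6 of the 21 genes were listed at 0 in EV low dose against 1 in NASH. In bulk tissue fewer cells of a type and less RNA per cell cannot be told apart.

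Macrophage genes lay closer to the median gene. Of the monocyte and inflammatory macrophage list, 14 of 18 genes were kept, all within 2-fold, with a median of 0.04 and 8 above the median gene, where by definition 50.0% of all genes lie. Cd14, the co-receptor for endotoxin, was the lowest at 8.22 FPKM in EV low dose against 14.5 in NASH (-0.64), and Tyrobp, an adaptor of activating receptors, the highest at 101 FPKM with the low EV dose against 82.7 in NASH (0.39). The general macrophage gene Adgre1 was at 34.7 FPKM with the low and 36.4 with the high EV dose, against 32.9 in NASH and 6.94 in control (0.19).

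Kupffer cell genes had a median of 0.06 over 13 genes. Clec4f, specific to Kupffer cells in mice, was at 106 FPKM in EV low dose against 103 in NASH (0.16), and the scavenger receptor Marco at 5.71 FPKM in EV low dose against 10.3 in NASH (-0.65). Genes of lipid-associated macrophages, which gather around dying fat-laden hepatocytes, had 4 of 14 above the median gene and a median of -0.11. They ran from Spp1, which encodes osteopontin (40.4 FPKM with the low EV dose against 55.8 in NASH, -0.34), to the elastase Mmp12 (34.9 FPKM in EV low dose against 30.1 in NASH, 0.32), and Trem2, the lipid receptor these cells are named by, was at 16.3 FPKM with the low and 17.3 with the high EV dose, against 18.5 in NASH and 0.0991 in control (-0.06).

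Antigen presentation by MHC class II differed in 1 gene. H2-DMa, which helps load peptides onto class II molecules, was at 1.53 FPKM with the low and 1.15 with the high EV dose, against 5.17 in NASH and 0.776 in control (-1.18), and it too entered only through NASH. Its partner chain gene H2-DMb1 was at 13.5 FPKM in EV low dose against 14.4 in NASH (0.03), and Cd74, the invariant chain, at 127 FPKM with the low EV dose against 180.2 in NASH (-0.39). The median of the 7 class II genes was -0.15. The immunoglobulin segment Igkc, a plasma cell gene, was at 2.18 FPKM in EV low dose against 6.50 in NASH (-1.13), and all 18 T and NK cell genes were under 5 FPKM in both libraries.

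Soluble and signalling genes of inflammation lay close to the median gene. The interferon list had 24 genes within 2-fold and a median of 0.08, from Stat2 (-0.39) to Ifit3b (0.49). Among 8 chemokines, Cxcl9, which attracts T cells, was at 3.27 FPKM in EV low dose against 6.22 in NASH (-0.65), while the neutrophil attractant Cxcl1 was at 28.8 FPKM in EV low dose against 22.9 in NASH (0.43) and the monocyte attractant Ccl2 at 10.1 FPKM in EV low dose against 8.58 in NASH (0.32). Cytokine and sensing genes had 4 of 14 above the median gene (median -0.16). The acute phase list was within 2-fold for all 24 genes (median 0.08): besides Lcn2, the lowest were Orm2 (129 FPKM with the low EV dose against 208 in NASH, -0.57) and Lrg1 (71.3 FPKM in EV low dose against 111 in NASH, -0.52), and the highest Serpina3k (1684 FPKM in EV low dose against 1181 in NASH, 0.62).

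Genes of the integrated stress response lay below the median gene in nearly every member kept. Of the 41 genes of the ATF4 list 29 were kept, 28 of them below the median gene and 1 above, with a median of -0.26, or -0.20 relative to genes of like length and GC content. At 1.5-fold, 5 were lower and 0 higher, against 1.42% lower and 2.08% higher over all genes. Of the 29, 4 reached 5 FPKM in NASH alone (Trib3, Ddit4, Pck2 and Ppp1r15a) and 0 in EV low dose alone, so that the side of those 4 was partly set by the filter. Trib3, a pseudokinase that ATF4 induces, was at 4.54 FPKM with the low and 3.84 with the high EV dose, against 12.3 in NASH and 2.09 in control (-1.15). Nupr1, a stress-induced chromatin protein, was at 18.6 FPKM in the EV low dose liver and 11.8 in the EV high dose liver, against 40.4 in NASH and 1.56 in control (-0.97). Fgf21, a hormone that the stressed or fasting liver secretes, was at 16.4 FPKM with the low and 10.9 with the high EV dose, against 32.1 in NASH and 0.641 in control (-0.82). In all 3 genes NASH was the highest of the 4 livers, EV high dose lay below EV low dose, and control was the lowest.

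The other members followed in smaller steps. Atf5, a factor of the same family as ATF4, was at 24.4 FPKM in EV low dose against 43.3 in NASH (-0.69) and Asns, asparagine synthetase, at 11 FPKM with the low EV dose against 19.1 in NASH (-0.64). Ddit3, which encodes the death-linked factor CHOP, was at 8.34 FPKM in EV low dose against 12.3 in NASH (-0.40). Atf4 itself, which is controlled mainly at translation, was at 38.4 FPKM with the low and 37.3 with the high EV dose, against 45.8 in NASH and 46.0 in control (-0.14), and there the control liver was not low. The member above the median gene was Cth, which makes cysteine, at 129 FPKM in EV low dose against 95.3 in NASH (0.54).

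The 250 bases before the annotated starts of Nupr1 (chr7:126625471-126625720), Fgf21 (chr7:45615491-45615740) and Trib3 (chr2:152344061-152344310), all on the minus strand of GRCm38.p6 and from RefSeq, are shown since these genes lead the list and ATF4 with its partners is known to bind the element TGATGNAAT. Capitals mark a match to it, which in both Nupr1 and Fgf21 lies on the opposite strand and reads ATTGCATCA. It begins 111 bases before the start of Nupr1 and 140 bases before that of Fgf21, and no match was found in these letters of Trib3.
Nupr1: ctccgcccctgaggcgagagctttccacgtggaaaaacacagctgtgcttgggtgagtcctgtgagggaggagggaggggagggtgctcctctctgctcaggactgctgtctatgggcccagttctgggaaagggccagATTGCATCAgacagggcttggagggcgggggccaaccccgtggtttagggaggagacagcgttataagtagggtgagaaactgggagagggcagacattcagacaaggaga
Fgf21: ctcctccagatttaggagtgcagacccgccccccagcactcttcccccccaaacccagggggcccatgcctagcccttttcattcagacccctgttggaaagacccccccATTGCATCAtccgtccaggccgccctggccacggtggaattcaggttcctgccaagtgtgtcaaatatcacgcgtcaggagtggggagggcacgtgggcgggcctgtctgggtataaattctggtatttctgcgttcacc
Trib3: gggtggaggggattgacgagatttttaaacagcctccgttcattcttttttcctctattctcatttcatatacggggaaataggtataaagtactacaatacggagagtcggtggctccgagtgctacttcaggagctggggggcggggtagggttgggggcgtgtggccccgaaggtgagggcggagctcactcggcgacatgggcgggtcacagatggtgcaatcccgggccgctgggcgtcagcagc
On either strand the element was found in 4 of 34 list genes with such a sequence (11.8%), against 0.910% of 27025 genes. The other 2 were the tRNA synthetase genes Aars (34.8 FPKM with the low EV dose against 41.2 in NASH, -0.13) and Gars (29.0 FPKM in EV low dose against 38.0 in NASH, -0.27). A match is a description of these letters and shows no binding. The share concerns reference letters of a list chosen for its tie to ATF4, and says nothing about the 2 libraries.

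Immediate early genes, which cells switch on within minutes of a stimulus, also lay low. Of 18 genes kept, 17 were below the median gene, with a median of -0.26 (-0.23 relative to genes of like length and GC content). Of the 18, Egr1, Fos and Myc reached 5 FPKM in NASH alone, so that their side was partly set by the filter. Egr1 was at 2.83 FPKM with the low and 2.89 with the high EV dose, against 7.06 in NASH and 2.11 in control (-0.96), Junb at 15.1 FPKM in EV low dose against 22.4 in NASH (-0.43) and Fos at 3.64 FPKM with the low EV dose against 5.48 in NASH (-0.37). Also lower was Ccn2, a matricellular growth factor induced by stretch and TGF-beta, at 6.47 FPKM with the low and 5.45 with the high EV dose, against 12.6 in NASH and 1.05 in control (-0.76).

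Other stress programs differed less. Heat shock genes had 4 of 13 above the median gene (median -0.15), with Hspa1b at 5.23 FPKM in EV low dose against 9.78 in NASH (-0.68). Of the 27 NRF2 targets, which detoxify oxidants, 9 were above it (median -0.09), with Srxn1 at 46.8 FPKM in EV low dose against 73.9 in NASH (-0.54) and Hmox1 at 24.3 FPKM with the low EV dose against 36.1 in NASH (-0.44). Chaperones and other genes of the unfolded protein response centred on 0.01. Within them Syvn1, a ubiquitin ligase that disposes of misfolded proteins, was at 3.02 FPKM with the low and 2.92 with the high EV dose, against 6.54 in NASH and 4.96 in control (-0.80) and the sensor Ern1 at 5.98 FPKM in EV low dose against 11.1 in NASH (-0.69), whereas the chaperone Canx was at 102 FPKM in EV low dose against 104 in NASH (0.09).

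Collagen genes were below the median gene in each of the 11 members kept of 17, while their median lay at that of other genes of like length and GC content. Col1a1, a chain of the fibrillar collagen of scars, was at 7.95 FPKM in the EV low dose liver and 5.91 in the EV high dose liver, against 14.6 in NASH and 0.516 in control (-0.69). Col1a2 was at 15.1 FPKM with the low EV dose against 21.9 in NASH (-0.40), Col3a1 at 61.8 FPKM in EV low dose against 79.5 in NASH (-0.25) and the basement membrane chain Col4a1 at 27.2 FPKM in EV low dose against 37.1 in NASH (-0.33). The list median was -0.32 relative to all genes and 0.01 relative to genes of like length and GC content, and Col1a1 stood at -0.32 on the second scale. Matrix glycoproteins shifted likewise between the scales, with a median of -0.17 and -0.01 on those scales, from Bgn (25.7 FPKM with the low EV dose against 40.1 in NASH, -0.51) to Postn (15.1 FPKM in EV low dose against 12.2 in NASH, 0.40).

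The TGF-beta and stellate list had 3 of 13 genes above the median gene, with medians of -0.15 and -0.10. Tgfb1, the main fibrogenic cytokine, was at 4.27 FPKM with the low and 3.15 with the high EV dose, against 6.18 in NASH and 1.17 in control (-0.33). Lrat, a vitamin A enzyme of quiescent stellate cells, was at 8.80 FPKM in EV low dose against 7.80 in NASH (0.26). Proteases and their inhibitors centred on 0.00 and endothelial genes on -0.03.

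**Figure D4:**
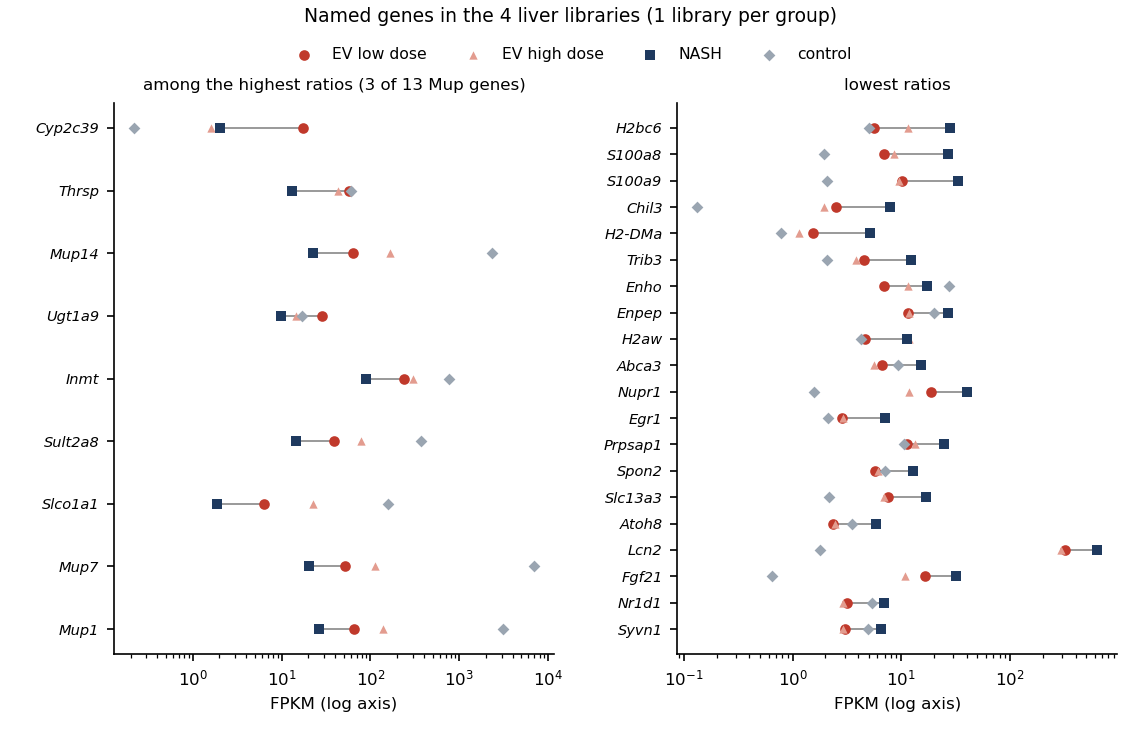
FPKM (log axis) in the 4 liver libraries of genes among the highest (left, with 3 of 13 Mup genes) and lowest (right) ratios of EV low dose over NASH, with a line joining those 2 libraries. S100a8, S100a9, Nupr1, Fgf21 and Trib3 have both EV livers between control and NASH, while Cyp2c39 stands out in EV low dose alone, at 17.5 FPKM against 2.01 in NASH.

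Male-biased liver genes were higher in the EV low dose liver, with the Mup genes in front. Of the 30 genes of that list 22 were kept, 20 of them above the median gene and 8 at least 2-fold higher, with a median of 0.76, or 0.60 relative to genes of like length and GC content. Over all genes kept 0.513% were at least 2-fold higher. The male-biased list itself holds Mup genes, among them Mup14, Mup11 (1.44) and Mup12 (1.44). Many Mup genes are near-identical copies, so its count and median do not stand for separate male-biased genes alone. Neither was calculated without the Mup genes. Of 22 Mup genes, 19 were kept, all 19 above the median gene and 17 at least 2-fold higher, with a median of 1.42. Mup14 (gene ID 100039116, chromosome 4, 61300037 to 61304089 of GRCm38.p6) was at 64.4 FPKM in the EV low dose liver and 164 in the EV high dose liver, against 22.3 in NASH and 2311 in control (1.6). Mup7 was at 51.7 FPKM with the low and 113 with the high EV dose, against 20.4 in NASH and 6924 in control (1.41) and Mup3 at 500.0 FPKM with the low and 947 with the high EV dose, against 223 in NASH and 13629 in control (1.27). In each of these genes EV low dose lay above NASH, EV high dose above EV low dose, and control far above all.

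Mup20, which encodes the male scent protein darcin, had another order of levels. It was at 5930.4 FPKM in the EV low dose liver and 8689.6 in the EV high dose liver, against 3415 in NASH and 5256 in control (0.91), with both EV livers above control. Its share of the summed Mup FPKM was 76.6% with the low and 70.0% with the high EV dose, against 82.4% in NASH and 8.69% in control. Without it the Mup genes summed to 1812 FPKM with the low and 3724 with the high EV dose, against 728 in NASH and 55242 in control. Many Mup genes are near-identical copies, so how their FPKM divide among them is uncertain.

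The 250 bases before the annotated starts of Mup3 (chr4:62087318-62087567) and Mup7 (chr4:60070476-60070725), minus strand of GRCm38.p6 and from RefSeq, are shown because they let the promoters of 2 copies be compared, with the stretch that can be laid side by side in capitals.
Mup3: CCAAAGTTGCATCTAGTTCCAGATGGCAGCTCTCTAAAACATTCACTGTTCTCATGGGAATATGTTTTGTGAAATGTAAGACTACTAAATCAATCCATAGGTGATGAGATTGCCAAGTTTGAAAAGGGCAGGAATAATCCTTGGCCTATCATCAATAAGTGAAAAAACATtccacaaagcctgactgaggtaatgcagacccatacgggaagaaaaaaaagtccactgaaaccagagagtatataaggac
Mup7: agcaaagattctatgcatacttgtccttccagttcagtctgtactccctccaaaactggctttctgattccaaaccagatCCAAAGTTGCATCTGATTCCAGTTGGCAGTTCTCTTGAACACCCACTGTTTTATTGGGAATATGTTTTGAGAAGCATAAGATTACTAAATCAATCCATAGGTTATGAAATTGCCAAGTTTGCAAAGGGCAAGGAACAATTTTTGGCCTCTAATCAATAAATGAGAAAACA
Laid side by side with no gap and an offset of 80 bases, 125 of the 170 positions hold the same base (73.5%), with 20 in the longest unbroken run. Toward the end of the capitals the letters fall out of step, so a layout with gaps would match at least as many bases. The STAT5 element TTCNNNGAA was found in 2 of 22 male-biased genes with such a sequence (9.09%: C8a and Moxd1), against 8.13% of 27025 genes.

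Other male-biased genes were Slco1a1, which takes organic anions into hepatocytes, at 6.29 FPKM with the low and 22.3 with the high EV dose, against 1.86 in NASH and 158 in control (1.46), and the P450 Cyp7b1 at 14.8 FPKM with the low EV dose against 13.1 in NASH (0.28). Outside that list, Cyp2c54 was at 7.16 FPKM with the low and 14.2 with the high EV dose, against 2.38 in NASH and 142 in control (1.38) and Serpina3k, a growth hormone-dependent protease inhibitor, at 1684 FPKM with the low and 2339 with the high EV dose, against 1181 in NASH and 7065 in control (0.62). All 4 genes had the order NASH, EV low dose, EV high dose, control from low to high. Hsd3b5, a male steroid dehydrogenase, was not kept: it was at 0.124 FPKM with the low and 0.816 with the high EV dose, against 0.160 in NASH and 182 in control.

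Female-biased genes did not take the opposite side. Of 13 kept of 27, 12 were above the median gene, with a median of 0.32, or 0.07 with the same FPKM sum. Cyp2c39, a P450 that oxidises retinoic acid (gene ID 13098, chromosome 19, 39347346 to 39569568 of GRCm38.p6), was at 17.5 FPKM in the EV low dose liver and 1.62 in the EV high dose liver, against 2.01 in NASH and 0.218 in control, a ratio of 2.73, the highest of the 7404 genes. It was high in the EV low dose liver alone, a pattern of more than 2 times each other liver that it shared only with Pmm1 and the snoRNA gene LOC115487891. The female-biased Cyp2a4 was at 121 FPKM in EV low dose against 104 in NASH (0.32) and Cyp2b9 at 15.8 FPKM in EV low dose against 14.1 in NASH (0.26).

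The growth hormone axis itself centred on 0.01. Ghr, its receptor, was at 54.7 FPKM with the low and 75.1 with the high EV dose, against 44.6 in NASH and 115 in control (0.40), Igf1 at 37.1 FPKM with the low EV dose against 30.7 in NASH (0.37) and Igfals, which carries IGF-1 in blood, at 19.5 FPKM in EV low dose against 15.4 in NASH (0.43). Igfbp1, an insulin-suppressed binding protein, was at 61.2 FPKM with the low and 56.8 with the high EV dose, against 114 in NASH and 50.2 in control (-0.78). Bcl6, a repressor of STAT5 targets, was at 5.85 FPKM with the low and 1.70 with the high EV dose, against 2.14 in NASH and 6.12 in control (1.23), with EV low dose and control high and EV high dose and NASH low, the order of the pseudogenes above. Bcl6 had this order in liver and not in colon. The feedback gene Socs2 was at 6.84 FPKM in EV low dose against 8.60 in NASH (-0.18).

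**Figure D5:**
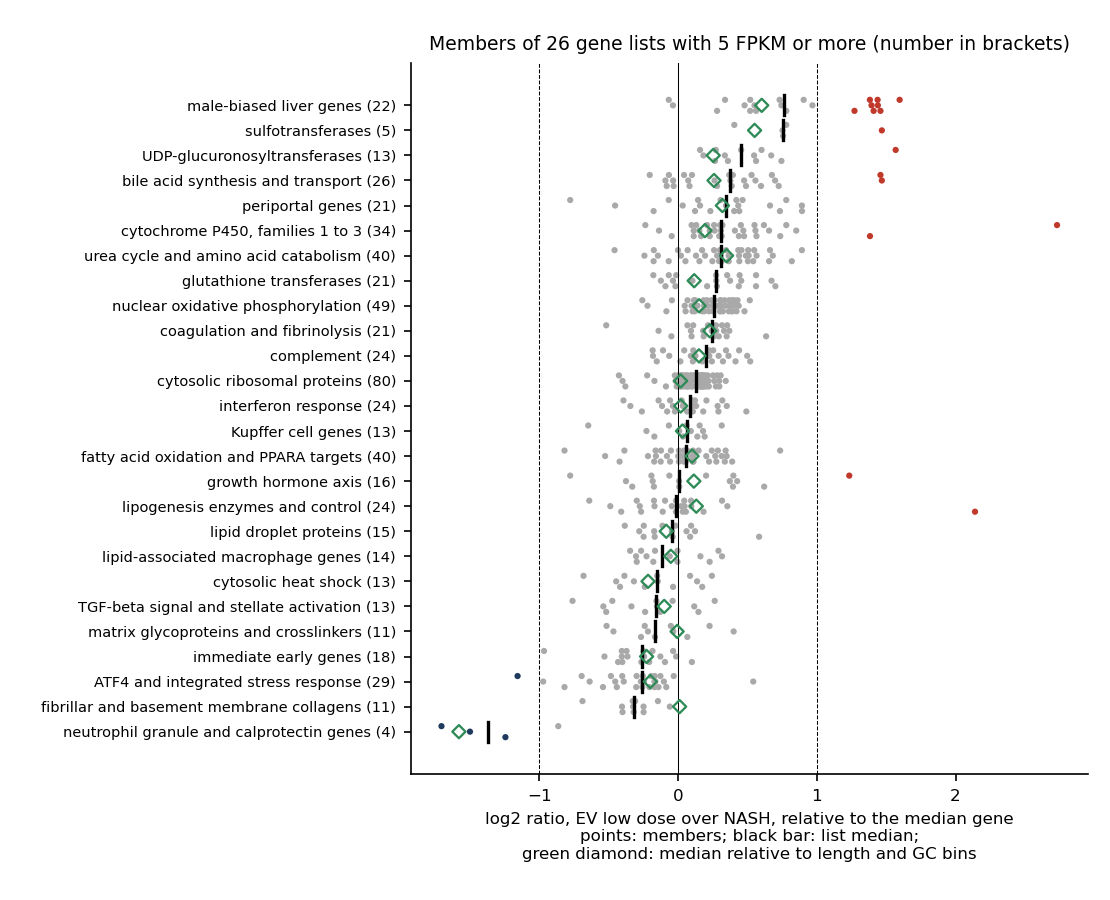
Log2 ratios of the members with 5 FPKM or more of 26 gene lists, with the list median (black bar) and the median relative to genes of like length and GC content (green diamond). Male-biased genes, a list that includes Mup genes, have the highest median, 0.76, and neutrophil genes the lowest, -1.37. The collagen median moves from -0.32 to 0.01 between the 2 scales.

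Enzymes that process drugs, steroids and bile acids were mostly higher in EV low dose. Of 34 cytochrome P450 genes of families 1 to 3, 31 were above the median gene, with a median of 0.31. It was 0.19 relative to like genes and 0.06 with the same FPKM sum. After Cyp2c39 and Cyp2c54 the highest was Cyp2c50, at 74.9 FPKM with the low and 112 with the high EV dose, against 44.4 in NASH and 295 in control (0.85), and the lowest was Cyp1a2, a target of the aryl hydrocarbon receptor, at 65.8 FPKM with the low EV dose against 83.9 in NASH (-0.23). Cyp2f2 was at 81.2 FPKM in EV low dose against 50.6 in NASH (0.78) and Cyp3a13 at 46.5 FPKM in EV low dose against 29.7 in NASH (0.74). Cyp2c genes are alike in sequence, so reads may be shared among them.

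Conjugating enzymes had the same side. All 13 UDP-glucuronosyltransferase genes kept were above the median gene (median 0.46, or 0.25 relative to like genes and 0.20 with the same FPKM sum). Ugt1a9 was at 28.6 FPKM with the low and 14.5 with the high EV dose, against 9.76 in NASH and 17 in control (1.57), while Ugt1a1, which conjugates bilirubin, was at 112 FPKM with the low EV dose against 108 in NASH (0.16). These 2 share all but their first exon, so the split between them is uncertain. All 5 sulfotransferases kept of 14 were above it as well (median 0.76), with Sult2a8, which sulfates bile acids in mice, at 39 FPKM with the low and 77.8 with the high EV dose, against 14.6 in NASH and 373 in control (1.47). Inmt, an indolethylamine methyltransferase, was at 237 FPKM with the low and 304 with the high EV dose, against 89.2 in NASH and 773 in control (1.51). The glutathione transferases had a median of 0.28, and 0.02 at its lowest under the settings tried.

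The bile acid list had 20 of 26 genes above the median gene and a median of 0.37, or 0.12 with the same FPKM sum. Slc10a1, the main carrier that takes bile acids up from blood, was at 47.9 FPKM with the low and 51.5 with the high EV dose, against 33.8 in NASH and 165 in control (0.60), and Slco1b2 at 391 FPKM in EV low dose against 286 in NASH (0.56). Akr1d1, a reductase of bile acid synthesis, was at 61.9 FPKM in EV low dose against 40.0 in NASH (0.73) and Nr0b2, the bile acid-induced repressor SHP, at 17.8 FPKM with the low and 10.2 with the high EV dose, against 11.5 in NASH and 31.2 in control (0.70). Cyp7a1, the rate-limiting enzyme of bile acid synthesis, was at 70.7 FPKM with the low and 88.9 with the high EV dose, against 57.8 in NASH and 9.52 in control (0.40). Abcb11, which exports bile acids, was at 94.5 FPKM with the low EV dose against 98.9 in NASH (0.04).

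In lipid metabolism 1 gene stood apart. Thrsp, which encodes Spot 14, a lipogenic nuclear protein induced by thyroid hormone and carbohydrate (gene ID 21835, chromosome 7, 97412933 to 97417550 of GRCm38.p6), was at 57.2 FPKM in the EV low dose liver and 43.6 in the EV high dose liver, against 13.2 in NASH and 60.6 in control, a ratio of 2.14. Both EV livers and control were high, and NASH was low. The 250 bases before its start (chr7:97417551-97417800, minus strand, GRCm38.p6, from RefSeq) are shown because it is the highest ratio of the lipid lists. They are in lower case throughout, since they hold none of the 3 elements searched.
Thrsp: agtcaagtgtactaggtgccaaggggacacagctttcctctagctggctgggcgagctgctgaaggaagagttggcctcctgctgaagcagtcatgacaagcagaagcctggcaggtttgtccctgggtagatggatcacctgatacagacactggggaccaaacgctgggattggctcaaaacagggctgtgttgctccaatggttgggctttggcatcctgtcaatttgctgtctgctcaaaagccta

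Other lipogenic genes lay nearer to the median gene. Of 24 lipogenesis genes, 11 were above the median gene, with a median of -0.01. Fasn, fatty acid synthase, stood at 0.05, Scd1, stearoyl-CoA desaturase, was at 441 FPKM in EV low dose against 572 in NASH (-0.27), and Me1, malic enzyme, at 13.5 FPKM in EV low dose against 19.7 in NASH (-0.41). Lpin1, a phosphatidate phosphatase and coactivator, was the lowest at 16 FPKM with the low EV dose against 27.6 in NASH (-0.64).

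Storage, uptake and burning of fat lay near the median gene. Lipid droplet proteins had a median of -0.04 over 15 genes, with the large-droplet protein Cidec at 42.8 FPKM with the low and 31.7 with the high EV dose, against 55.1 in NASH and 0.0793 in control (-0.25) and the lipase inhibitor G0s2 at 112 FPKM in EV low dose against 80.2 in NASH (0.58). Fatty acid uptake genes had a median of 0.18, or -0.08 with the same FPKM sum, with Cd36 at 143 FPKM in EV low dose against 131 in NASH (0.23) and Slc27a5, which activates bile acids and long fatty acids, at 152 FPKM with the low EV dose against 102 in NASH (0.68). Of 40 genes of fatty acid oxidation and PPARA targets, 27 were above the median gene (median 0.06). Apart from Fgf21 they ran from Ucp2 (18.5 FPKM in EV low dose against 29.2 in NASH, -0.52) to the thioesterase Acot3 (12.9 FPKM in EV low dose against 7.99 in NASH, 0.74). Cholesterol synthesis centred on 0.07, with Msmo1 highest at 16.6 FPKM with the low EV dose against 10.9 in NASH (0.68).

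Nitrogen metabolism and periportal genes were higher by small steps in most members. Of 40 genes of the urea cycle and amino acid breakdown, 34 were above the median gene, with a median of 0.31, and 0.35 relative to like genes. At its lowest under the settings tried this median was 0.06. Hal, histidine ammonia lyase, was at 42.1 FPKM with the low and 45.2 with the high EV dose, against 24.1 in NASH and 117 in control (0.89). Bhmt, which remethylates homocysteine, was at 1147 FPKM in EV low dose against 701 in NASH (0.82), Arg1, arginase, at 711 FPKM in EV low dose against 484 in NASH (0.66) and Otc, ornithine transcarbamylase, at 125 FPKM in EV low dose against 85.5 in NASH (0.66). Ass1, another urea cycle enzyme, was at 569 FPKM with the low EV dose against 643 in NASH (-0.07). The periportal list, to which several of these belong, had a median of 0.35 over 21 genes and the pericentral list 0.06 over 12. Under the settings tried these medians went down to 0.09 and -0.23. Glul, the defining pericentral gene, was at 226 FPKM in EV low dose against 277 in NASH (-0.18).

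Glucose genes split. G6pc, which releases glucose, was at 57.1 FPKM with the low and 57.5 with the high EV dose, against 36.7 in NASH and 258 in control (0.74) and the glucose carrier Slc2a2 at 188 FPKM in EV low dose against 145 in NASH (0.48), while Irs2, an insulin receptor substrate, was at 3.09 FPKM with the low EV dose against 5.87 in NASH (-0.64). Enho, which encodes the peptide hormone adropin, was at 6.89 FPKM with the low and 11.5 with the high EV dose, against 17.2 in NASH and 27.6 in control (-1.10). There the EV low dose liver was the lowest of the 4 and control the highest. Enpep, aminopeptidase A, which cleaves angiotensin II, was at 11.4 FPKM with the low and 11.7 with the high EV dose, against 27.1 in NASH and 19.9 in control (-1.07), and in colon it was at 5.18 FPKM with the low and 5.98 with the high EV dose, against 15.2 in NASH and 3.65 in control. Both EV libraries were below NASH in each tissue for this gene.

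Secreted and housekeeping programs differed little. Complement and coagulation genes had medians of 0.20 and 0.24, with 19 of 24 and 18 of 21 above the median gene, but both medians were below 0 (-0.06 and -0.01) when the 2 libraries were scaled to the same FPKM sum, which put the median gene at -0.25. Nuclear genes of oxidative phosphorylation had 45 of 49 above the median gene (median 0.26, 0.15 relative to like genes and 0.01 with the same FPKM sum) and cytosolic ribosomal proteins 70 of 80 (0.13 and 0.02, but -0.13 with the same FPKM sum). Genes of the highest level bin, from 35.2 FPKM upward, had a median of 0.13 themselves, and the part of level in the ratios of these abundant lists was not tested. Transcripts of mitochondrial DNA had a median of -0.13, or -0.46 relative to like genes, while their summed FPKM was 9014 FPKM with the low and 10669 with the high EV dose, against 7984 in NASH and 12679 in control. They ran from ND4 (26.9 FPKM in EV low dose against 46.1 in NASH, -0.64) to ND6 (21.7 FPKM in EV low dose against 16.9 in NASH, 0.45). Hepcidin genes differed from each other: Hamp2 was at 202 FPKM with the low and 4.50 with the high EV dose, against 359 in NASH and 169 in control (-0.72) and Hamp at 451 FPKM with the low and 600.4 with the high EV dose, against 418 in NASH and 403 in control (0.22). How reads were divided between these 2 related genes was not tested.

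Clock, cell cycle and histone genes were mostly close as well. Core clock genes centred on -0.05, but Nr1d1, the repressor REV-ERB-alpha, was at 3.19 FPKM with the low and 2.88 with the high EV dose, against 6.88 in NASH and 5.38 in control (-0.80). Cell cycle genes had a median of -0.02, with Top2a at 5.43 FPKM with the low EV dose against 5.76 in NASH (0.04). Of 52 replication-dependent histone genes kept, 51 were within 2-fold. The exception was H2bc6 (gene ID 319179, chromosome 13, 23583670 to 23621124 of GRCm38.p6), at 5.63 FPKM with the low and 11.4 with the high EV dose, against 28.2 in NASH and 5.06 in control (-2.03), the lowest ratio of all, and a gene whose annotated span of chromosome 13 is far longer than a histone's coding part. H2aw, another histone gene, was at 4.67 FPKM with the low and 11.8 with the high EV dose, against 11.2 in NASH and 4.23 in control (-0.99), and both belong to the genes above in which EV low dose and control were low together in liver.

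The remaining genes among the 20 lowest ratios were Abca3, a phospholipid transporter (6.60 FPKM in EV low dose against 15.3 in NASH, -0.99), Prpsap1, a partner of phosphoribosyl pyrophosphate synthetase (11.2 FPKM in EV low dose against 24.7 in NASH, -0.96), the secreted matrix protein gene Spon2 (5.72 FPKM with the low EV dose against 12.9 in NASH, -0.94), the dicarboxylate carrier Slc13a3 (7.61 FPKM in EV low dose against 16.8 in NASH, -0.93) and the transcription factor Atoh8 (2.35 FPKM in EV low dose against 5.86 in NASH, -0.92). In all 5 the EV high dose liver was within 2-fold of the EV low dose liver. Among the other genes past 2-fold upward, named after their values were seen, Asgr2, a subunit of the receptor that clears desialylated glycoproteins, was at 115 FPKM with the low and 69.5 with the high EV dose, against 57.6 in NASH and 102 in control (1.1). Ces1d, a carboxylesterase that hydrolyses triglycerides, was at 224 FPKM with the low and 262 with the high EV dose, against 114 in NASH and 402 in control (1.08), and Pmm1, a phosphomannomutase, at 8.20 FPKM with the low and 3.30 with the high EV dose, against 3.79 in NASH and 0.957 in control (1.05).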

How the data were processed

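Values were FPKM as deposited by the authors, 1 column per library, for 45777 NCBI gene IDs, of which 45679 were matched to symbols of GRCm38.p6. Per the labels, total RNA (TRIzol, then RNeasy Plus columns) was made into stranded libraries. The tools Trimmomatic 0.38, HISAT2 and StringTie and the build mm10 are named, with no role, per the submitters' processing notes, and no further versions or settings are given in the sources used here. FPKM went down to 1e-06 and were not steps of whole reads, so depth was not recovered. Ratios used a pseudocount of 1 FPKM and a filter of 5 FPKM. Named genes were the 20 highest and 20 lowest ratios (without predicted genes, pseudogenes, small RNAs, receptor segments and mitochondrial genes) and up to 4 members of each of 72 gene lists farthest from 0. Other genes, such as defining markers, were chosen after their values were seen, and some named by the rule are not reported here. Members and lists were chosen with earlier results of these data known. The 250 bases before gene starts were searched for TGATGNAAT, TTCNNNGAA and TATAAA on both strands. The code was tested on simulated libraries. Python 3.11.15, numpy 2.4.6, pandas 2.3.3 and matplotlib 3.10.9 were used.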

Additional observations from a re-analysis of the deposited data

Results flagged for a closer look

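H2bc6 lay on opposite sides in the 2 tissues. In liver it was at 5.63 FPKM in EV low dose against 28.2 in NASH (log2 -2.03), and in colon at 72.3 in EV low dose against 22.2 in NASH (log2 1.67). With 1 library per group and tissue this difference between tissues was not tested. Of the 50 genes 2-fold apart in liver, 11 reached 5 FPKM in a colon library of the same pair, and H2bc6 was the 1 that was 2-fold apart in the opposite direction there.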

How the results depend on the processing

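The 38 genes at least 2-fold higher numbered 29 to 55 under the settings tried, and 21 without the Mup genes. The 12 genes at least 2-fold lower were less stable: they numbered 21 with a pseudocount of 0.1 FPKM and 4 with 5 FPKM, 28 with a filter of 1 FPKM and 39 with none, 21 as deposited, and 40 with libraries scaled to the same FPKM sum. Higher genes were 76% of those 2-fold apart, against 61.1% as deposited and 44.4% with the same sum. Scaling put the median gene at -0.11 as deposited, 0.10 after median-of-ratios scaling and -0.25 with the same sum, and in the last case 28 of 70 list medians crossed 0, all from above. The same sum includes the 5 small RNA genes, which were 54.0% of it in EV low dose and 49.7% in NASH. A sum without them was not tried. Relative to genes of like length and GC content, a choice made after the data were seen, 29 genes were higher and 10 lower, and 12 of 70 list medians crossed 0, among them the collagens. The median of the neutrophil list ran from -1.62 to -0.45 and that of the male-biased list from 0.50 to 0.87. Of 31 named genes 2-fold apart, 22 stayed so under each of 10 alternatives. No paired analysis was possible because each group held 1 library, and for the same reason no library could be left out.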
